A study of Rattus norvegicus with 36 samples.

Results

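The insulin-like growth factor (IGF) system was followed at the RNA level in H9C2 cells, a rat cardiac myoblast line. The genes were taken by name: the ligands Igf1 and Igf2, the receptors Igf1r and Igf2r, and the binding proteins Igfbp2 to Igfbp7, 10 genes in all. The tables listed 9 of them among 24275 genes, and Igfbp3 was not analysed here. The cells received 25 nmol/L of mimic control (MC), miR-125b or 1 of its 3′isomiRs (Trim AGU, Trim AG, Trim A or Plus A) for 24 h, followed by 24 h of hypoxia or normoxia, with 3 libraries per group. The hypoxic cells were in serum-free low-glucose medium and the normoxic cells in fresh medium, so oxygen and medium cannot be told apart. The library counts covered 11 groups; for the Normoxia MC group only the authors' mean values were used. All groups came from 1 line, without further alleles or agents, and no source used here says that the libraries of a group came from separate cultures, so the p-values measure the spread between these libraries, which may be technical.

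IGF1 and IGF2 are secreted growth and survival factors. Both signal through the IGF1 receptor, a tyrosine kinase that activates the PI3K and AKT pathway and thereby growth and survival of muscle cells, while the IGF2 receptor, which also carries lysosomal enzymes, takes up IGF2 for degradation. The secreted IGF binding proteins hold the ligands in the medium and at the cell surface, limit or prolong their access to the receptor, and some act on cells without a ligand.

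The mimics are shown because they share the seed that pairs with target RNAs and differ only at the 3′ end. The miR-125b sequence is the mature rno-miR-125b-5p of RefSeq (GRCr8, chr11:29732588-29732609, plus strand), and the isomiRs were built from it by the change that each name gives, as full-length mimic sequences are not given in the sources used here, with trimmed bases named from the 3′ end inward. Capitals mark the seed, bases 2 to 8.
miR-125b: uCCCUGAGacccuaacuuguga
Plus A: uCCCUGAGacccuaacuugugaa
Trim A: uCCCUGAGacccuaacuugug
Trim AG: uCCCUGAGacccuaacuugu
Trim AGU: uCCCUGAGacccuaacuug
The lengths run from 19 bases in Trim AGU to 23 bases in Plus A, and all 5 hold the same seed.

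The libraries held 28361216 to 42672584 counts. Depth followed a group: the Hypoxia Trim AG libraries held 39940087 to 42672584 counts, and the largest library of any other group 34505938. The part of this depth in the Trim AG differences was not tested. Some libraries stood apart from their group. Replicate 2 of Hypoxia Trim AGU had counts for 16981 genes, against 18342 to 19451 in the other libraries, and within the hypoxic groups of the trimmed isomiRs the chi-square per gene between libraries reached 236, against at most 37.8 in the other groups. Replicate 1 of both Normoxia Plus A and Normoxia miR-125b went against its label: Cav1 was at 269 CPM, the count scaled to a common library total, in the first and 102 in the second, while the other libraries were at 98.0 and 98.3 CPM in Normoxia Plus A and at 282 and 263 CPM in Normoxia miR-125b. Each tested comparison that uses either library was also run without it, and Normoxia Plus A against Normoxia miR-125b without both, and each gave the same number of IGF genes called. The shares of all genes called were not computed for these runs. Of the 12 myoblast markers, Vim, Myod1, Myog, Gata4, Mef2c, Tnnt2, Acta1 and Myh3 were present in all libraries. Des was at 0.855 to 4.98 CPM, Nkx2-5 stayed below 1 CPM and Myf5 was at 0 or close to it. Actc1 was at 31.5 to 35.0 CPM in Hypoxia MC, but its median over all libraries was 0.486 CPM. The 4 adult cardiomyocyte markers summed to at most 3.57 CPM. The summed myoblast markers were at 4927 to 5006 CPM in Hypoxia MC and at 2728 to 4846 CPM in the other groups. Vim made most of these sums, at 3670 to 3790 CPM in Hypoxia MC and 3445 to 4624 CPM in Hypoxia Trim AGU. The part of the markers in the differences from MC was not tested. In such bulk samples, fewer cells of a type and less RNA per cell cannot be told apart.

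Per transcript length, Igfbp7, Igf2 and Igfbp4 were the most abundant RNAs of the system, in this order, in all 11 groups. Igfbp7, a secreted protein of low affinity for IGF, ranged from 211 to 295 FPKM over the group means. Igf2 ranged from 84.9 to 208 FPKM and Igfbp4, an inhibitory binding protein that the protease PAPP-A cleaves, from 36.5 to 101 FPKM. The next places were shared by Igf1r, Igf2r and Igfbp5, whose order changed with the group. Igf1 was seventh in each group, at 1.41 to 4.79 FPKM, far below Igf2. Igfbp2 and Igfbp6 were the lowest, at 0.137 to 2.75 FPKM and 0.260 to 1.08 FPKM.

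**Figure D1:**
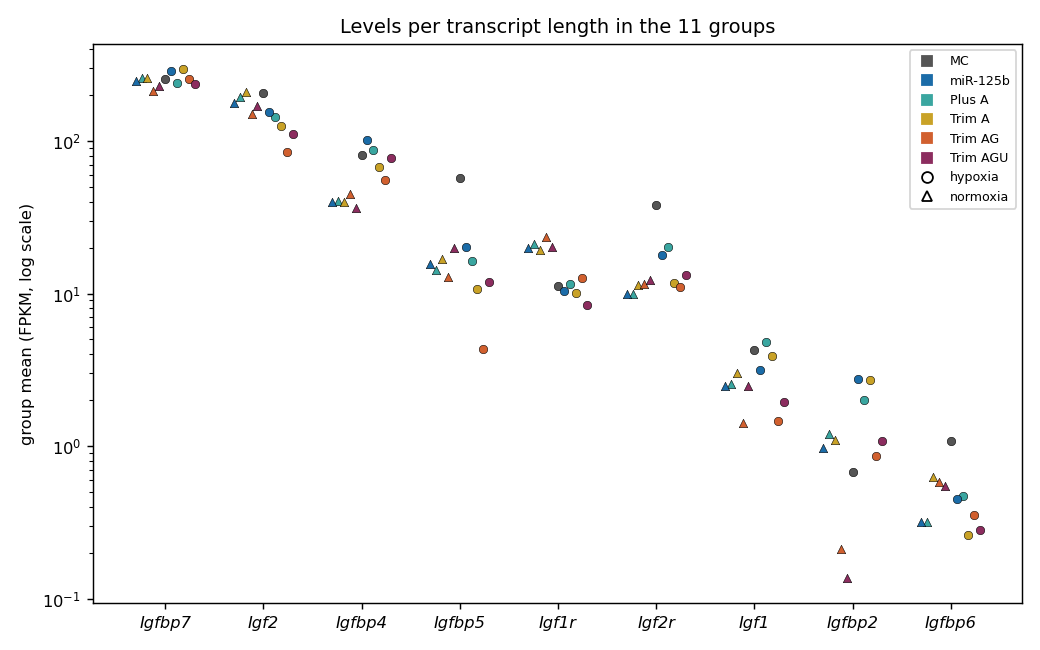
Group mean level of each gene in FPKM on a log axis, with circles for hypoxia, triangles for normoxia and colours for the mimic; each point is the mean of 3 libraries. Igfbp7, Igf2 and Igfbp4 hold the top places in all groups, and Igfbp5 has its lowest point, 4.35 FPKM, in Hypoxia Trim AG.

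Across groups, Igfbp2 and Igfbp5 varied most. The Igfbp2 group means, in CPM, spanned 21.3-fold, from Normoxia Trim AGU to Hypoxia miR-125b, and those of Igfbp5 13.7-fold, from Hypoxia Trim AG to Hypoxia MC. Igfbp7 varied least, by 1.43-fold. The means of the remaining genes spanned 2.55-fold for Igf2 to 4.33-fold for Igfbp6. When the 11 groups were placed in order of their mean, most neighbours overlapped: no neighbouring pair was separate for Igf2, 1 of 10 for Igfbp6 and Igfbp7, 2 of 10 for Igf1, Igf2r, Igfbp4 and Igfbp5, 3 of 10 for Igf1r and 4 of 10 for Igfbp2.

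**Figure D2:**
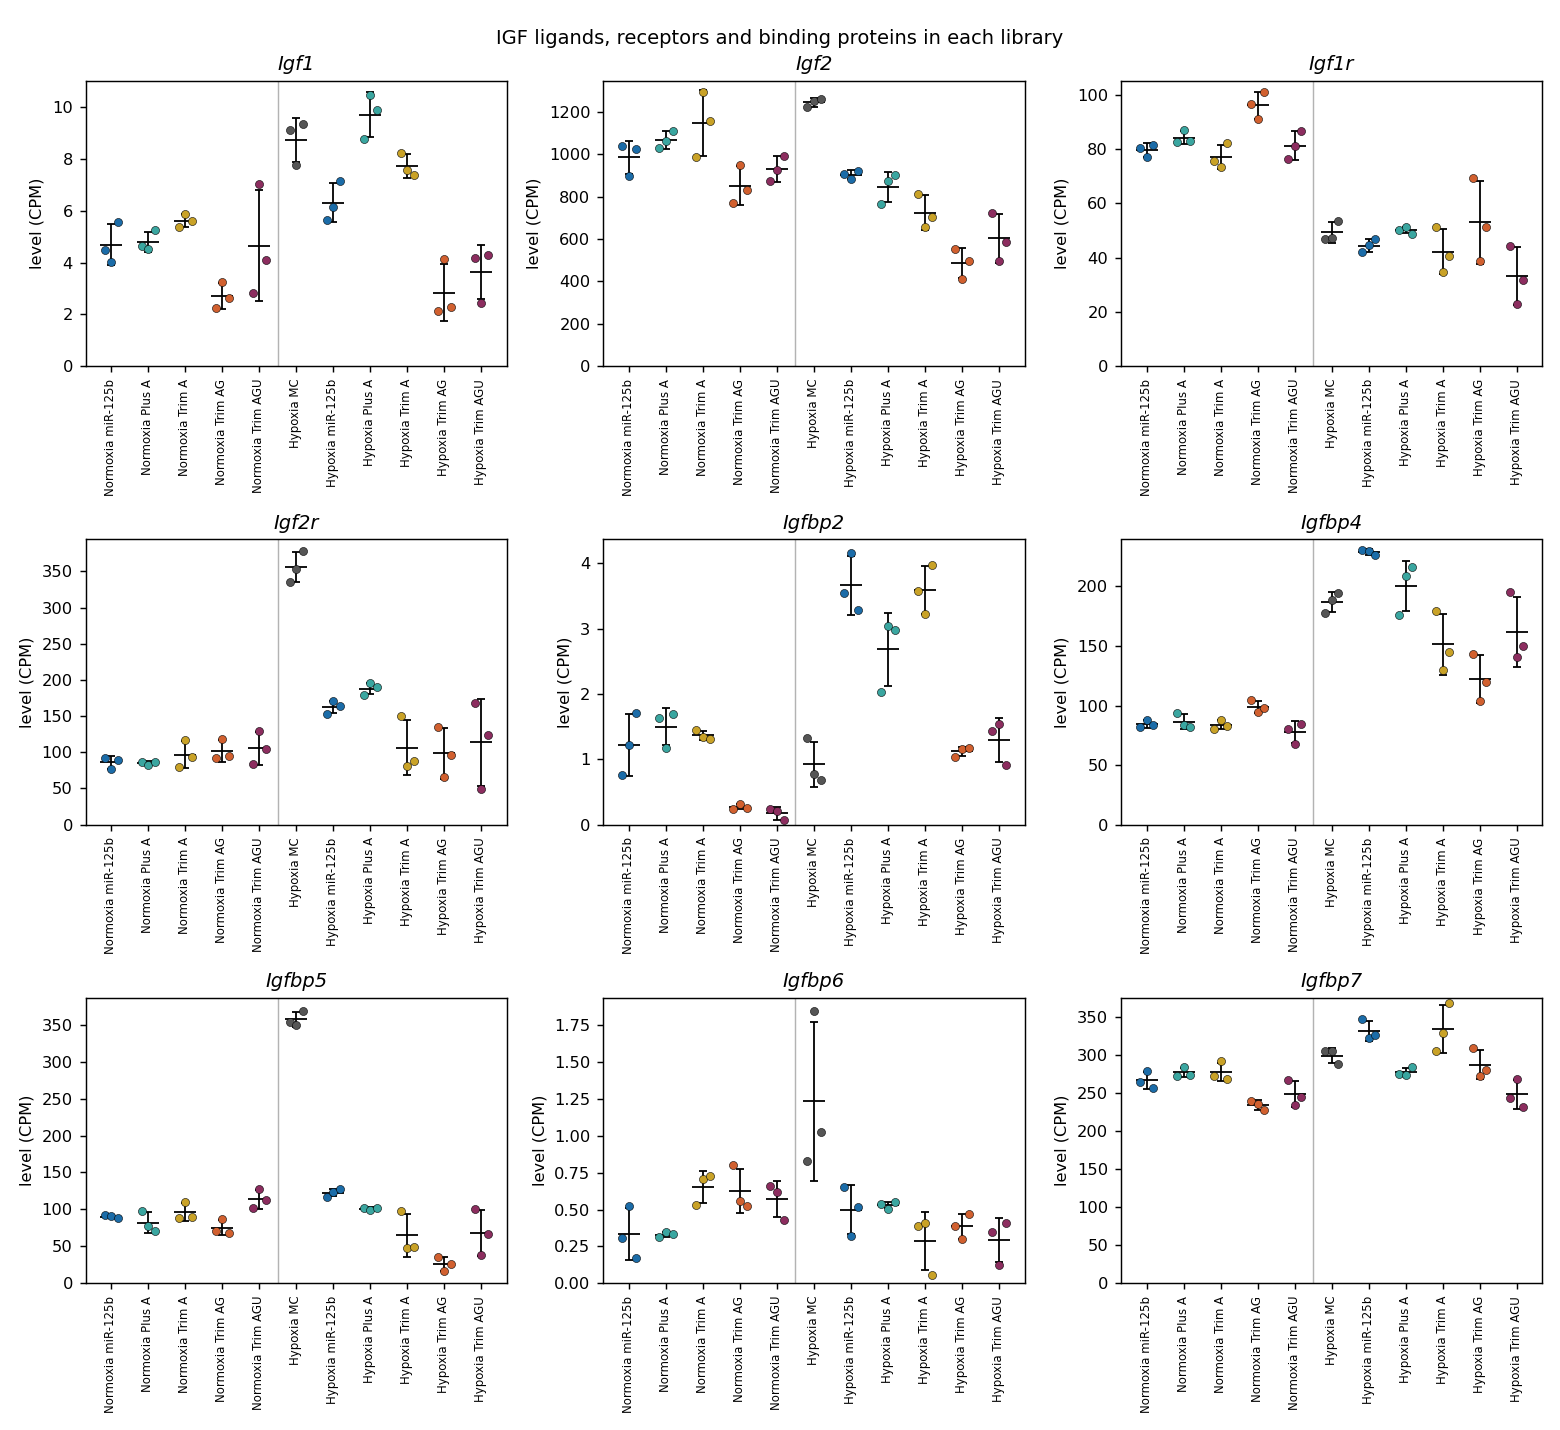
Level of each gene in each library in CPM (points), with the mean and SD of the 3 libraries of each group (bars), normoxia on the left and hypoxia on the right of each panel. Igf2r and Igfbp5 stand highest in Hypoxia MC, Igf1r is lower in all hypoxic groups than in all normoxic groups on average, and Igfbp2 is lowest in Normoxia Trim AG and Trim AGU.

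The first comparison asked how the IGF genes of hypoxic cells differed between each mimic and MC. Igf2r and the binding proteins Igfbp5 and Igfbp6 were called lower with all 5 mimics. Igfbp2 was called higher with Trim A, Plus A and miR-125b, and both ligands were called lower with Trim AG and Trim AGU. Genes were called at an adjusted p below 0.05 with a change of at least 1.5-fold. With miR-125b, 4 of 9 genes were called (1 higher, 3 lower), where 21.9% of all genes tested were (9.43% higher, 12.5% lower). With Plus A, 1 was higher and 3 lower (24.8% of all genes called, 10.5% higher and 14.4% lower). Trim A gave 1 higher and 4 lower (28.1%, 12.4% and 15.7%). Trim AG gave 5 lower (37.2% of all genes called, 20.2% lower), and Trim AGU also 5 lower (23.8% and 12.4%). The Trim AGU count was 2 without replicate 1 or 3 of Hypoxia MC, and 3 without replicate 2 of Hypoxia MC or replicate 3 of Hypoxia Trim AGU. The libraries of the groups did not overlap for 9 of 9 genes with miR-125b (65.1% of all genes), for 6 with Plus A (63.4%), with Trim A (60.8%) or Trim AG (66.8%), and for 7 with Trim AGU (55.1%). The median log2 fold change of the 9 genes was -1.29 with Trim AG and -0.91 with Trim AGU, and -0.43, -0.09 and -0.26 with miR-125b, Plus A and Trim A respectively, while the median of all genes was between -0.02 and 0.00. The scaling of the libraries sets the median of all genes close to no change, here and in the later comparisons. These 5 comparisons share the 3 MC libraries.

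Among the ligands, Igf2 (ENSRNOG00000020369), a fetal growth factor that myoblasts make for themselves, was at 1224, 1251 and 1264 CPM in Hypoxia MC. It was at 909, 883 and 922 CPM with miR-125b and at 768, 873 and 901 CPM with Plus A. Trim A gave 815, 657 and 704 CPM. The MC libraries lay above every library of these groups, but only the Trim A difference reached 1.5-fold (1.67-fold lower, adjusted p = 0.000223). With Trim AG, Igf2 was at 555, 413 and 498 CPM, a 2.44-fold decrease (log2 fold change -1.29, SE 0.102, adjusted p = 1.43e-05). Trim AGU gave 725, 497 and 587 CPM (1.88-fold lower, adjusted p = 0.00427).

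Igf1 (ENSRNOG00000004517), the main circulating IGF, was low in these cells, at 9.12, 7.76 and 9.34 CPM in Hypoxia MC. With Trim AG it was at 2.13, 4.13 and 2.27 CPM (2.93-fold lower, adjusted p = 0.000870), and with Trim AGU at 4.19, 2.45 and 4.29 CPM (2.20-fold lower, adjusted p = 0.0116). Neither group overlapped MC. The Trim AGU call was lost without replicate 1 (adjusted p = 0.0577) or replicate 3 (0.0601) of Hypoxia MC. With Plus A, Igf1 was at 8.76, 10.5 and 9.90 CPM, with Trim A at 8.24, 7.57 and 7.39 CPM, both overlapping MC. With miR-125b it was at 5.64, 6.16 and 7.14 CPM, below all MC libraries but by less than 1.5-fold (1.35-fold lower, adjusted p = 0.0147).

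Of the receptors, Igf2r was called with all 5 mimics and Igf1r with none. Igf1r (ENSRNOG00000014187), the signalling receptor, had log2 fold changes that ran from -0.45 with Trim AGU to 0.17 with Trim AG. The 95% intervals were -0.24 to 0.02 for miR-125b and -0.09 to 0.18 for Plus A. Without replicate 1 of Hypoxia Trim AGU, the Trim AGU value became -0.68 and was called (adjusted p = 0.0158). Igf2r (ENSRNOG00000014997), the clearance receptor, was at 336, 354 and 378 CPM in Hypoxia MC and fell with all mimics. It was at 153, 170 and 164 CPM with miR-125b (log2 fold change -1.09, SE 0.0467, adjusted p = 1.03e-08) and at 179, 195 and 190 CPM with Plus A (-0.90, SE 0.0526, adjusted p = 4.83e-07). Trim A gave 150, 81.2 and 87.9 CPM, with 1 library near the miR-125b level and the others well below it (-1.70, SE 0.207, adjusted p = 0.000308). Trim AG gave 135, 65.2 and 95.6 CPM (-1.79, SE 0.216, adjusted p = 0.000141), and Trim AGU 168, 48.9 and 124 CPM (-1.53, SE 0.364, adjusted p = 0.0215). All libraries with a mimic were below all MC libraries. The Trim AGU call was lost when any single MC library, or replicate 3 of Trim AGU, was left out (adjusted p from 0.0667 to 0.0778), and without replicate 2 of Hypoxia Trim AGU it remained (-1.20, adjusted p = 0.000154).

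Igfbp5 (ENSRNOG00000017206), a binding protein that is tied to myoblast differentiation, had the most negative log2 fold change of the 9 genes with all 5 mimics. It stood at 354, 350 and 369 CPM in Hypoxia MC. With miR-125b it was at 117, 124 and 127 CPM (2.84-fold lower, adjusted p = 2.00e-10) and with Plus A at 101, 99.5 and 102 CPM (3.48-fold lower, adjusted p = 2.50e-09). Trim A gave 98.0, 47.0 and 49.0 CPM (5.37-fold lower, adjusted p = 0.000153). With Trim AG, Igfbp5 was at 35.8, 16.9 and 25.6 CPM, 13.1-fold below MC (log2 fold change -3.72, SE 0.231, adjusted p = 4.08e-06). Trim AGU gave 99.9, 37.7 and 66.7 CPM (4.84-fold lower, adjusted p = 0.00298). No library with a mimic came near the MC libraries. Of the 12 myoblast markers, 8 or 9 had all their libraries below those of Hypoxia MC with each mimic, and 1 or 2 above. In these comparisons 55.1% (Trim AGU) to 66.8% (Trim AG) of all genes tested did not overlap MC, in either direction. The shares of all genes below or above MC were not computed, so the marker counts cannot be set beside them. Myog, a differentiation factor of myoblasts, was at 342 to 359 CPM in Hypoxia MC, 63.1 to 64.7 CPM in Hypoxia miR-125b and 10.4 to 11.8 CPM in Hypoxia Trim AG. Tnnt2 had the same order, at 295 to 316, 41.1 to 43.2 and 14.8 to 16.4 CPM in these groups. Acta1, the skeletal muscle actin, did not follow that order. It was at 160 to 173 CPM in Hypoxia MC, 17.4 to 19.7 CPM in Hypoxia miR-125b and 140 to 181 CPM in Hypoxia Trim AG, where Igfbp5 was lowest. Gata4 lay above Hypoxia MC with each mimic. The part of these markers in the Igfbp5 difference was not tested.

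Igfbp2 (ENSRNOG00000016957), a binding protein abundant in fetal tissue, was the only member called higher against MC. In Hypoxia MC it was at 1.32, 0.772 and 0.686 CPM, that is 40, 23 and 20 counts. It was at 3.54, 4.16 and 3.29 CPM with miR-125b (4.03-fold higher, adjusted p = 3.71e-05), at 2.04, 3.03 and 2.98 CPM with Plus A (2.92-fold higher, adjusted p = 0.00114) and at 3.57, 3.23 and 3.97 CPM with Trim A (3.98-fold higher, adjusted p = 0.000466). These 3 groups did not overlap MC. Trim AG (1.04, 1.15 and 1.17 CPM) and Trim AGU (1.44, 1.54 and 0.910 CPM) overlapped MC, with adjusted p = 0.354 and 0.254.

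Igfbp6 (ENSRNOG00000010977), which prefers IGF2 over IGF1, was called lower with all mimics, but it was barely expressed, at 25, 55 and 30 counts in Hypoxia MC and at 2 to 20 counts in the libraries with a mimic. Its decrease was between 2.28-fold with Plus A and 4.21-fold with Trim A. Without replicate 2 of Hypoxia MC, which had the 55 counts, the calls were lost with miR-125b (adjusted p = 0.0818), Plus A (0.0820), Trim A (0.0709) and Trim AGU (0.128), and the Trim AGU call was also lost without any of 4 other libraries (adjusted p from 0.0546 to 0.0861). The miR-125b call was also lost without replicate 2 of that group (0.0551).

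Igfbp4 (ENSRNOG00000010635) and Igfbp7 (ENSRNOG00000002050) were called with no mimic. Igfbp4 was at 178, 189 and 194 CPM in Hypoxia MC, at 230, 230 and 226 CPM with miR-125b (1.26-fold higher, adjusted p = 1.01e-05) and at 143, 104 and 120 CPM with Trim AG (1.46-fold lower, adjusted p = 0.00246). Both groups lay apart from MC, in opposite directions, and neither reached 1.5-fold. Without replicate 1 of Hypoxia Trim AG or of Hypoxia MC, the Trim AG difference passed it (log2 fold changes -0.66 and -0.59). Igfbp7 differed from MC by at most 1.15-fold. Its gene overlaps Polr2b on the other strand, at a mean of 96.2 CPM, and because the libraries were not stranded, reads of the 2 genes cannot be told apart there.

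**Figure D3:**
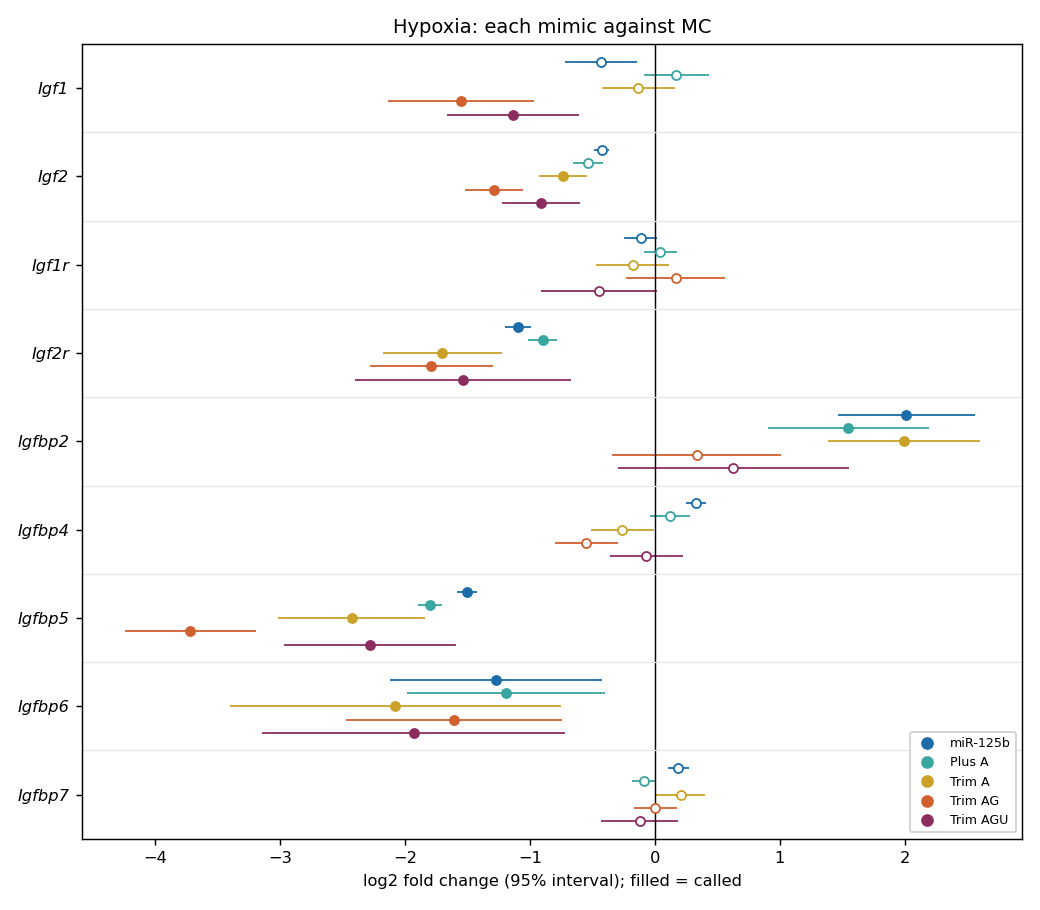
Log2 fold change of each gene in hypoxia, mimic against MC, with 95% intervals; filled points were called. Igf2r, Igfbp5 and Igfbp6 lie left of 0 with all 5 mimics, Igfbp2 lies right of 0 with all 5 and was called with 3 of them, and the Igfbp5 value for Trim AG is at -3.72.

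In normoxia, the authors' mean normalized values gave a view of Plus A against MC, without SD, n or test. The Plus A mean includes replicate 1, which went against its label, and could not be recomputed without it. Igfbp2 was at 44.6 in Plus A and 5.59 in MC, a ratio of 7.97. Igfbp5 was at 2433 against 5004 (ratio 0.486), Igf2r at 2542 against 4738 (0.537) and Igfbp6 at 9.81 against 30.8 (0.319). Igf2 was at 31750 against 43240, a ratio of 0.734. The ratios of Igf1, Igf1r, Igfbp4 and Igfbp7 lay between 0.916 and 1.11. Over 14400 genes with a mean of at least 10, the median ratio was 1.01, 11.8% were lower by 1.5-fold or more and 11.1% higher.

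The second comparison set each isomiR against miR-125b in hypoxia, where the sequences differ only by 1 base added, or by 1, 2 or 3 bases removed, at the 3′ end. Trim AG was the isomiR with most differences: 6 of 9 genes were lower, where 19.3% of all genes were called and 11.5% were lower. With each of the other 3 isomiRs 1 of 9 genes was called: Igf1 higher with Plus A (2.03% of all genes called, 0.707% higher), Igfbp4 lower with Trim A (0.873% called, 0.417% lower) and Igfbp2 lower with Trim AGU (3.75% called, 1.93% lower). The groups did not overlap for 7 of 9 genes with Trim AG (54.1% of all genes), 7 with Plus A (36.8%), 6 with Trim AGU (37.7%) and 5 with Trim A (29.0%). The median log2 fold change of the 9 genes was -0.87 with Trim AG, -0.11 with Plus A, -0.32 with Trim A and, with Trim AGU, -0.50, and that of all genes lay between -0.02 and 0.00. The 4 comparisons share the miR-125b libraries, and the p-values were adjusted over all genes within each comparison.

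With Trim AG, both ligands were below miR-125b. Igf2 was 1.83-fold lower (log2 fold change -0.87, SE 0.0997, adjusted p = 0.000350) and Igf1 2.18-fold lower (-1.13, SE 0.266, adjusted p = 0.0104). Igf2r was 1.63-fold lower (adjusted p = 0.0272), a call that was lost without any single miR-125b library or replicate 3 of Trim AG (adjusted p from 0.0619 to 0.0842) and, by its size, without replicate 2 of Trim AG (log2 fold change -0.49). Among the binding proteins, Igfbp5 was 4.66-fold lower (adjusted p = 0.000176), Igfbp2 3.22-fold lower (adjusted p = 0.000266) and Igfbp4 1.85-fold lower (adjusted p = 0.000404). None of these 6 genes overlapped between the groups. Igf1r was not called (log2 fold change 0.27, 95% interval -0.13 to 0.66).

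With Plus A, Igf1 was 1.52-fold higher than with miR-125b (adjusted p = 0.0135), with 8.76 to 10.5 CPM against 5.64 to 7.14 CPM. The call was lost without replicate 2 of Plus A (adjusted p = 0.0556), or without replicate 1 (0.0611) or 2 (0.0532) of miR-125b. The other genes were within 1.38-fold of miR-125b, and the intervals of their log2 fold changes were narrow for Igf2 (-0.24 to 0.02) and Igf1r (0.03 to 0.28) but wide for Igfbp6 (-0.74 to 0.90). Igfbp5 and Igfbp7 were lower by less than 1.5-fold at adjusted p = 0.00319 and 0.00353, and Igf2r was higher by less than 1.5-fold (log2 fold change 0.20, adjusted p = 0.0323).

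With Trim A, Igfbp4 was at 179, 130 and 145 CPM against 226 to 230 CPM (1.51-fold lower, adjusted p = 0.0385); leaving out any 1 library other than replicate 1 of Trim A ended the call (adjusted p from 0.108 to 0.191). Igfbp5 was 1.90-fold and Igf2r 1.53-fold lower, with adjusted p = 0.0955 and 0.139. Replicate 1 of Hypoxia Trim A stood above the other libraries of its group for both genes, and without it both were called, at log2 fold changes of -1.34 (adjusted p = 2.30e-07) and -0.92 (adjusted p = 1.99e-06), so that 3 of 9 genes were called. The share of all genes called without that library was not computed. Igfbp2 did not differ detectably (95% interval -0.39 to 0.34).

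With Trim AGU, Igfbp2 was at 1.44, 1.54 and 0.910 CPM against 3.29 to 4.16 CPM (2.63-fold lower, adjusted p = 0.0474), a call that was lost without any 1 library other than replicate 2 of Trim AGU (adjusted p from 0.0505 to 0.234). Igf1 was 1.64-fold lower (adjusted p = 0.129), Igfbp5 1.72-fold lower (adjusted p = 0.158) and Igf2 1.42-fold lower (adjusted p = 0.0828). The 3 Trim AGU libraries were spread widely for Igfbp5, from 37.7 to 99.9 CPM, all below the 117 to 127 CPM of miR-125b. Without replicate 1 of Trim AGU, Igfbp5 (-1.12, adjusted p = 0.0330) and Igf2 (-0.61, adjusted p = 0.0228) were called and Igfbp2 was not (adjusted p = 0.0505).

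The same contrasts in normoxia called 3 values in all, those of Igf1 with Trim AG and of Igfbp2 with Trim AG and Trim AGU. None of the 8 genes tested was called with Plus A, where 0.00% of all genes were called by edgeR; none had an unadjusted p below 0.05, and DESeq2 called 0. None of the 9 was called with Trim A (0.414% of all genes) by edgeR or DESeq2, and 2 had an unadjusted p below 0.05. With Trim AG 2 of 9 were lower (13.9% of all genes called, 6.36% lower) and with Trim AGU 1 of 9 (11.4% called, 5.16% lower). The groups did not overlap for 1 of 8 genes with Plus A (7.98% of all genes), 1 of 9 with Trim A (25.3%), 2 with Trim AGU (43.1%) and 7 with Trim AG (51.8%). Without replicate 1 of Normoxia Plus A and of Normoxia miR-125b, which went against their labels, again 0 were called with Plus A. For that smaller fit the share of all genes called was not computed. The part of these libraries in the 0.00% was not tested, and the lack of calls does not show that the mimics are alike.

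Igfbp2 was the gene called with both Trim AG and Trim AGU in normoxia. It was at 0.754, 1.22 and 1.70 CPM with miR-125b, at 1.64, 1.17 and 1.69 CPM with Plus A and at 1.45, 1.34 and 1.31 CPM with Trim A. With Trim AG it was at 0.243, 0.314 and 0.262 CPM (4.57-fold lower than with miR-125b, adjusted p = 0.00175) and with Trim AGU at 0.242, 0.207 and 0.0661 CPM (7.05-fold lower, adjusted p = 0.00347). These levels rest on 2 to 9 counts per library, and neither group overlapped miR-125b. Igf1 was 1.78-fold lower with Trim AG (adjusted p = 0.00800), at 2.26, 3.24 and 2.65 CPM against 4.49, 4.04 and 5.56 CPM. Igfbp5, which was 4.66-fold lower with Trim AG in hypoxia, was 1.23-fold lower in normoxia (70.8, 87.1 and 67.9 CPM against 92.0, 90.4 and 87.8 CPM, adjusted p = 0.0261), and with Trim AGU it was 1.25-fold higher (101, 127 and 112 CPM, adjusted p = 0.0275).

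**Figure D4:**
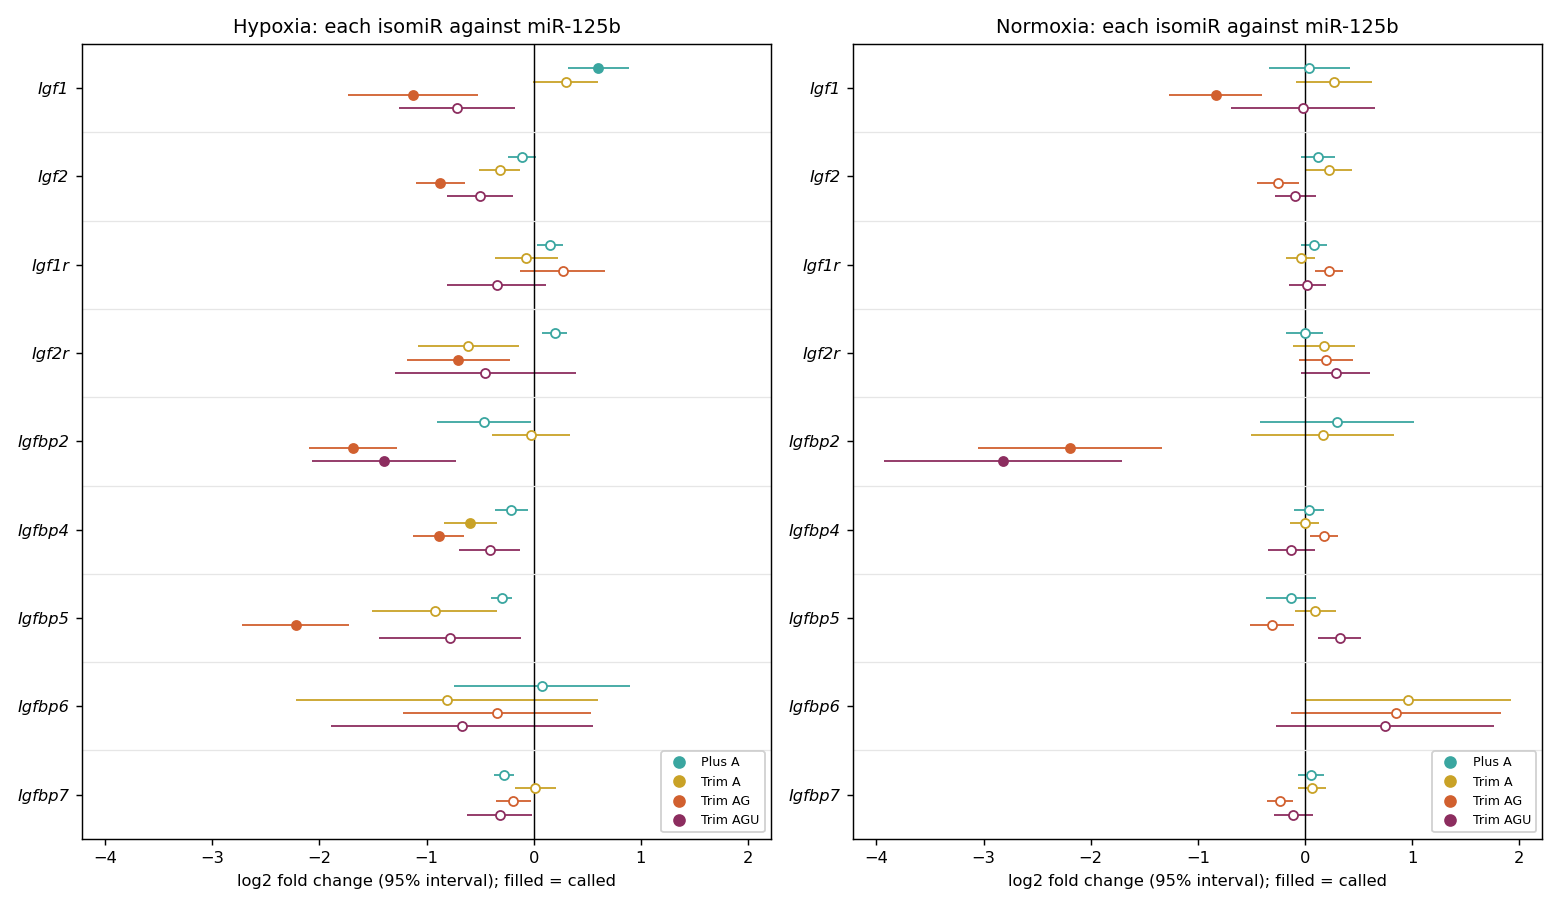
Log2 fold change of each gene, isomiR against miR-125b, in hypoxia (left) and normoxia (right), with 95% intervals; filled points were called. In hypoxia 6 of the Trim AG points are filled, and in normoxia the filled points are Igf1 with Trim AG and Igfbp2 with Trim AG and Trim AGU.

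The third comparison set hypoxia against normoxia under the same mimic. Igf1r was called lower and Igfbp2 higher in hypoxia under all 5 mimics. Igfbp4 was called higher under all but Trim AG. Igf2 was lower under all 5 mimics and passed the fold threshold under the 3 trimmed isomiRs. The number of genes called was 4 of 9 with miR-125b (20.9% of all genes), 5 with Plus A (22.8%), and 4 each with Trim A (26.5%), Trim AGU (27.0%) and Trim AG (32.8%). The groups did not overlap for 7 genes with miR-125b (61.5% of all genes), 8 with Plus A (60.8%), 7 with Trim A (58.8%), and 6 each under Trim AGU (52.3%) and Trim AG (63.2%). The median log2 fold change of the 9 genes was -0.33 under Trim AGU, -0.04 under Trim AG, 0.05 under Trim A, 0.36 under miR-125b and 0.57 under Plus A, against 0.00 to 0.02 for all genes. No hypoxic MC library was compared in this way, since the Normoxia MC libraries were not analysed here.

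Igf1r was at 80.4, 77.0 and 81.7 CPM in normoxia and at 42.1, 44.6 and 46.8 CPM in hypoxia with miR-125b (1.90-fold lower, adjusted p = 2.10e-06). With Plus A it went from 82.7, 87.0 and 83.0 CPM to 50.2, 51.2 and 48.9 CPM (1.81-fold lower, adjusted p = 2.62e-06). The decrease was 1.93-fold with Trim A, 2.41-fold with Trim AGU and 1.81-fold with Trim AG, and under no mimic did the groups overlap. Igf2r was called with miR-125b and Plus A: it was 1.78-fold higher in hypoxia with miR-125b (adjusted p = 1.94e-05) and 2.04-fold higher with Plus A (adjusted p = 8.91e-07). With Trim A, AG and AGU its log2 fold changes were 0.05, -0.04 and 0.12, with intervals of -0.45 to 0.56, -0.54 to 0.46 and -0.73 to 0.96. The change with oxygen differed from that with miR-125b for Trim AG (interaction -0.91, adjusted p = 0.0248), while for Trim A and Trim AGU this test gave adjusted p = 0.120 and 0.315.

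Igfbp2 was higher in hypoxia by 2.82-fold with miR-125b (adjusted p = 0.00133), 1.66-fold with Plus A (adjusted p = 0.0318), 2.49-fold with Trim A (adjusted p = 0.000546), 4.09-fold with Trim AG (adjusted p = 0.000364) and 7.68-fold with Trim AGU (adjusted p = 0.00684). The Plus A call was lost without replicate 2 of Normoxia Plus A (adjusted p = 0.113) or replicate 2 (0.103) or 3 (0.0980) of Hypoxia Plus A, and with DESeq2 (0.0520). Igfbp4 went from 81.6, 87.9 and 84.0 CPM to 230, 230 and 226 CPM with miR-125b, a 2.56-fold rise (log2 fold change 1.36, SE 0.0435, adjusted p = 8.55e-08). The rise was 2.15-fold with Plus A, 1.71-fold with Trim A and 2.14-fold with Trim AGU. With Trim AG, Igfbp4 was at 105, 94.4 and 97.6 CPM in normoxia and 143, 104 and 120 CPM in hypoxia, and these libraries overlapped (1.24-fold, adjusted p = 0.0400).

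Igf2 was 1.67-fold lower in hypoxia with Trim A (adjusted p = 0.00102), 1.74-fold lower with Trim AG (adjusted p = 0.000489) and 1.51-fold lower with Trim AGU (adjusted p = 0.0240). The Trim AGU call was lost without any 1 of the Normoxia Trim AGU libraries or replicate 3 of Hypoxia Trim AGU (adjusted p from 0.0723 to 0.113) and, by its size, without replicate 2 of Hypoxia Trim AGU (-0.53). The values with miR-125b and Plus A, 1.15-fold and 1.36-fold lower in hypoxia, were not called. Of the 5 mimics, Igfbp5 was called with Trim AG, 2.88-fold lower (adjusted p = 0.000445), and with Trim A it was called without replicate 1 of Hypoxia Trim A (log2 fold change -1.07, adjusted p = 6.99e-06), and also without the filter on low counts, with all libraries in 1 fit or with the replicate block (-0.66, -0.63 and -0.72, adjusted p from 0.0239 to 0.0349). With Trim AGU it was called by DESeq2 (-0.73, adjusted p = 0.0449), with all libraries in 1 fit (-0.73, adjusted p = 0.0115) and without replicate 1 of Hypoxia Trim AGU (-1.06, adjusted p = 0.0159). Igf1 was 1.87-fold higher in hypoxia with Plus A (4.64, 4.54 and 5.25 CPM against 8.76, 10.5 and 9.90 CPM, adjusted p = 0.000352) and was called with no other mimic. Igfbp6 and Igfbp7 were called with none by edgeR on the groups of each comparison; with all libraries in 1 fit, Igfbp6 was called with Trim A (-1.26, adjusted p = 0.0290).

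**Figure D5:**
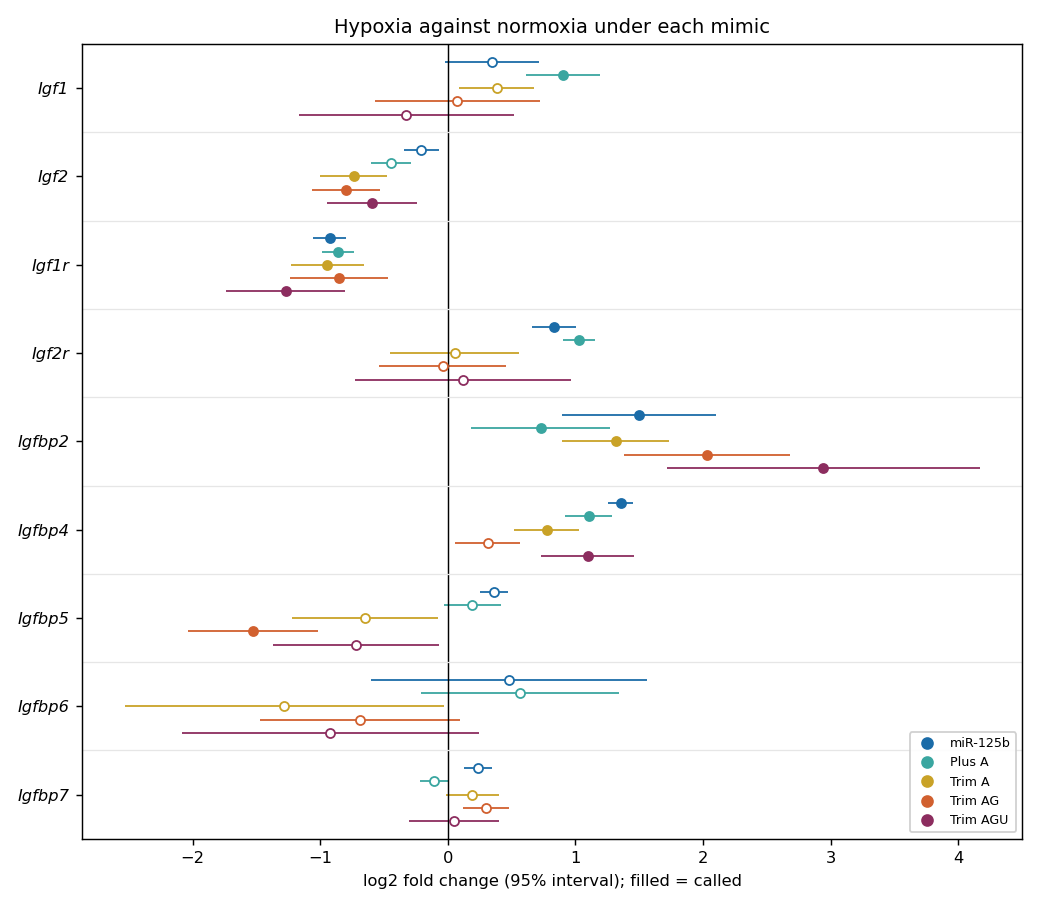
Log2 fold change of each gene, hypoxia against normoxia under the same mimic, with 95% intervals; filled points were called. Igf1r is left of 0 and Igfbp2 right of 0 with all 5 mimics, and Igfbp5 is at -1.53 with Trim AG.

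Whether an isomiR differed from miR-125b by another amount in hypoxia than in normoxia was tested as an interaction. With Trim AG, 4 of 9 genes were called, all with the more negative difference in hypoxia (11.3% of all genes were called, 6.97% lower): Igf2 (-0.63, SE 0.141, adjusted p = 0.00759), Igf2r (-0.91, SE 0.262, adjusted p = 0.0248), Igfbp4 (-1.08, SE 0.124, adjusted p = 0.000130) and Igfbp5 (-1.93, SE 0.252, adjusted p = 0.000314), each a difference of log2 fold changes. With Plus A (0.0193% of all genes), Trim A (0.605%) and Trim AGU (0.966%) edgeR called 0 of 9, with 4, 5 and 3 genes at an unadjusted p below 0.05; DESeq2 called 0, 0 and 1, the last being Igfbp5. Igf2, Igf2r, Igfbp4 and Igfbp5 were the 4 genes called for Trim A once replicate 1 of Hypoxia Trim A was left out, at -0.61, -1.09, -0.71 and -1.43. How many of all genes were then called was not computed. For Trim AGU, Igfbp5 was called without replicate 1 (-1.41, adjusted p = 0.00631) or replicate 2 (-0.86, adjusted p = 0.0193) of Hypoxia Trim AGU. For Trim AG, the Igf2r call was lost without any of 5 libraries (adjusted p from 0.0527 to 0.0688), and the Igf2 ratio fell under 1.5-fold without replicate 2 of Normoxia miR-125b, Normoxia Trim AG or Hypoxia Trim AG (-0.56, -0.54 and -0.53).

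The wider pathway was read from 46 listed genes for ligand release, receptor adaptors, PI3K, AKT and mTOR, FOXO factors and IGF2 mRNA binding, of which 44 were in the tables. Against MC in hypoxia, 6 of the 43 tested were higher and 8 lower with miR-125b, 32.6% in all beside 21.9% of all genes. Plus A gave 8 and 7 (34.9% beside 24.8%), Trim A 3 and 8 (25.6% beside 28.1%), Trim AG 5 and 12 (39.5% beside 37.2%), and Trim AGU 3 and 6 (20.9% beside 23.8%). The shares of the last 3 lay near those of all genes. Igf2bp2, which binds Igf2 mRNA, was lower with all 5, at 36.7, 34.4 and 34.4 CPM in MC and 15.8, 15.6 and 15.7 CPM with miR-125b (log2 fold change -1.13, adjusted p = 2.81e-08). Adam12, a metalloprotease that can cleave IGF binding proteins, was lower with all but Trim AGU, for which the log2 fold change was -1.14 (adjusted p = 0.215).

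Against miR-125b in hypoxia, 1 of 42 pathway genes was higher with Plus A (2.38% beside 2.03% of all genes called), 1 was higher and 7 lower of 42 with Trim AG (19.0% beside 19.3%), and edgeR called 0 of 43 with Trim A and 0 of 43 with Trim AGU, with 12 at an unadjusted p below 0.05 in each. Foxo1, a transcription factor that AKT inhibits, was higher with Plus A (8.92 ± 0.567 against 5.63 ± 0.354 CPM, SD, n = 3 each, log2 fold change 0.65, adjusted p = 0.00627) and lower with Trim AG (3.27, 1.13 and 2.41 CPM, -1.30, adjusted p = 0.0119). Pappa2, a protease of IGF binding proteins, and Pik3r2, a regulatory subunit of PI3K, were lower with Trim AG (log2 fold change -1.02, adjusted p = 0.00274, and 1.99-fold lower, adjusted p = 0.000202). In normoxia, edgeR called 0 of 42 with Plus A and 0 of 42 with Trim A, where 0 and 5 had an unadjusted p below 0.05. Trim AG gave 1 higher and 4 lower (11.9% beside 13.9% of all genes), and Trim AGU 2 higher and 3 lower (11.9% beside 11.4%). There Foxo1 was lower with Trim AG (-0.76, adjusted p = 0.00547) and Trim AGU (-0.72, adjusted p = 0.0161). With Trim AGU, Stc2, a secreted inhibitor of PAPP-A, was lower (-0.96, adjusted p = 0.00121) and Igf2bp2 higher (0.90, adjusted p = 0.000571).

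Between hypoxia and normoxia, 4 of 42 pathway genes were higher and 6 lower with miR-125b, 9.52% and 14.3% beside 9.34% and 11.5% of all genes. Plus A also gave 4 and 6, beside 10.0% and 12.8% of all genes. Trim A gave 0 and 8, 19.0% in all beside 26.5% of all genes, with 14.5% of all genes lower. Trim AG gave 3 and 12, 35.7% in all (28.6% lower) beside 32.8% of all genes (17.8% lower). Trim AGU gave 1 and 10, 26.2% in all (23.8% lower) beside 27.0% of all genes (13.4% lower). Adam12, the PI3K catalytic subunit gene Pik3cb and the regulatory subunit gene Pik3r1 fell with all 5 mimics. With miR-125b, Pik3r1 went from 20.2, 20.3 and 24.8 CPM to 10.4, 11.7 and 10.0 CPM (log2 fold change -1.11, adjusted p = 2.80e-05) and Adam12 from 203, 168 and 196 CPM to 75.1, 83.8 and 77.3 CPM (-1.35, adjusted p = 1.26e-06). Pik3cb changed by -0.92 (adjusted p = 0.00262). Of the interactions, 4 of 42 pathway genes were called with Trim AG (9.52% beside 11.3% of all genes), among them Stc2 (0.80, adjusted p = 0.00381), Pik3r2 (-0.70, adjusted p = 0.00153) and Eif4ebp1, a translation repressor downstream of mTOR (0.63, adjusted p = 0.00194). For Plus A, Trim A and Trim AGU edgeR called 0, with 12, 9 and 4 at an unadjusted p below 0.05.

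The genes whose group means followed those of an IGF gene most closely over the 11 groups were named as a description, on log2(CPM + 1) values. For Igfbp5 they were Arnt2, Man2b1 and Tpst1 (Pearson r = 0.983, 0.980 and 0.979), for Igf2 Arsa and Rin2 (0.974 and 0.973), for Igf2r Atat1, Prss35 and Mau2 (0.977, 0.974 and 0.973) and for Igf1r Dock5, Gfod1 and Sept5 (0.987, 0.986 and 0.986). Those of Igf1 were Senp8, Nr3c1 and Aff4 (0.959, 0.953 and 0.944). Those of Igfbp2 were Rpn1, Myo1f and AABR07011084.2 (0.966, 0.960 and 0.959), those of Igfbp4 Rn60_7_1407.5, Zfp395 and Snapc4 (0.976, 0.973 and 0.967), and those of Igfbp7 Pigc, Crebl2 and Ttll13 (0.928, 0.926 and 0.910). Within the IGF system, the highest r was between Igf2 and Igfbp5 (0.827) and the lowest between Igf1r and Igfbp4 (-0.815). All these points share the 33 libraries and the mimic and oxygen groups.

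The genes lie, in the coordinates of the tables, whose build they do not name, at chr7:28412198-28486609 (Igf1), chr1:215828102-215846911 (Igf2, minus strand), chr1:128924966-129206516 (Igf1r), chr1:48176106-48264477 (Igf2r), chr10:86950557-86962578 (Igfbp4), chr7:143749221-143754054 (Igfbp6) and chr14:33010300-33070190 (Igfbp7). Igfbp2 (chr9:80118029-80144789) and Igfbp5 (chr9:80150211-80167033, minus strand) are neighbours; Igfbp2 rose and Igfbp5 fell against MC with 3 of the mimics.

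Promoters of RefSeq (GRCr8), 250 bases before and 50 after the start, were searched on both strands for short motifs. ACGTG, a core of hypoxia response elements, was taken since hypoxia was compared with normoxia. The E-box CAGCTG was taken since myogenic factors bind it. Other forms of these motifs were not searched. The 9 genes matched 10 promoters, as Igf2 has 2. The core was in 5 of 10, those of Igf2 (1 of 2), Igf1r, Igf2r, Igfbp2 and Igfbp7, and in 19.3% of all 33469 promoters. CAGCTG was in 1, that of Igfbp6, and in 15.1% of all promoters. The following windows hold the core, in capitals, in the genes that were called between hypoxia and normoxia under at least 1 mimic; CACGTG reads the same on both strands and counts as a match on each.
Igf1r (chr1:130959955-130959984, plus strand): gtgcgcgcgggcACGTGtgcgcggccccga
Igf2r (chr1:50526782-50526811, plus strand): ccgactccggtcACGTGacgctttggggac
Igfbp2 (chr9:81864660-81864689, plus strand): gtgtgcgcaagcACGTGctctcacgcagga
Igf2 (chr1:207254132-207254161, minus strand): gcggcggccaggACGTGggcagtgctgctc
These cores begin 30, 84, 139 and 169 bases before the start. Not printed are a further match in Igf1r, 137 bases before the start, and a further CACGTG in Igf2r, from 125 bases before it. Of these genes, Igf1r and Igf2 were lower and Igf2r and Igfbp2 higher in hypoxia where they were called, and Igfbp4, which was higher with 4 mimics, has no ACGTG in its window. A match is a description of letters and not a bound site.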

How the data were processed

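RNA-seq of H9C2 cells was deposited as gene tables. The authors deposited raw read counts per gene and FPKM values for each library, and group mean normalized signal values, which were used for Normoxia Plus A and Normoxia MC alone. HISAT2 and StringTie are named in the submitters' processing notes, and the genome build is not given in the sources used here. Columns with the authors' own fold changes and p-values were not used. Counts were tested with edgeR 4.0.16 in R 4.3.3 (TMM scaling, filterByExpr, quasi-likelihood test, Benjamini-Hochberg adjustment over all genes, 2-sided), fitted on the groups of each comparison. The named pathway and similar genes were chosen by rules of call frequency, size and correlation. A few genes that these rules chose are not reported here. The scripts were tested on simulated data. DESeq2 1.42.0, library totals, no filter, no fold threshold, 1 fit of all libraries, a replicate block and leaving out each library were the alternatives. Replicate numbers were not treated as pairs in the main fit. In 0 of 18 comparisons did every same-numbered correlation exceed 0.1, a rule that cannot exclude a shared batch. The genes and lists were chosen with earlier results of these data known.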

Additional observations from a re-analysis of the deposited data

Results flagged for a closer look

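The difference between Trim AG and miR-125b was not the same in hypoxia as in normoxia for 4 IGF genes, as tested by the interaction term of edgeR. In this test 11.3% of all genes were called, and 6.97% of all genes were called lower. The Igf2r call was lost when some single libraries were left out (adjusted p from 0.0527 to 0.0688). The Igf2 ratio fell under 1.5-fold without replicate 2 of Normoxia miR-125b, Normoxia Trim AG or Hypoxia Trim AG. The interaction was -0.63 for Igf2, -0.91 for Igf2r, -1.08 for Igfbp4 and -1.93 for Igfbp5, each as the log2 fold change in hypoxia minus that in normoxia. The log2 fold changes of Trim AG against miR-125b were -0.87 in hypoxia and -0.26 in normoxia for Igf2, -0.71 and 0.19 for Igf2r, -0.89 and 0.18 for Igfbp4, and -2.22 and -0.30 for Igfbp5.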

How the results depend on the processing

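Of 120 counts of IGF genes called, recomputed with all libraries kept, 107 stayed within 1.5 times the reported count. These include reported counts of 0 that stayed at 0, so the 107 do not measure the stability of the other counts alone. The shares of all genes called were not computed for the alternatives. The counts of IGF genes that follow therefore cannot be set beside a share of all genes. Without the fold threshold, the count was 8 for miR-125b against MC, 4 for Plus A against miR-125b in hypoxia, in normoxia 7 with Trim AG and 2 with Trim AGU, and 7 for hypoxia against normoxia with miR-125b. With all libraries in 1 fit, the counts against miR-125b in hypoxia were 0 for Plus A and 3 for Trim AGU. DESeq2 called 2 for Trim A against miR-125b in hypoxia and 1 for the Trim AGU interaction. Without the filter on low counts, 0 were called for Trim AGU against miR-125b in hypoxia and 1 for the Trim A interaction. With the replicate block, 0 were called for Trim A and 0 for Trim AGU against miR-125b in hypoxia; same-numbered libraries had correlations between -0.345 and 0.152, and in 0 of 18 comparisons did every library correlate best with its own number. Leaving out 1 library gave 2 to 5 genes for Trim AGU against MC. Against miR-125b in hypoxia the ranges were 0 to 2 with Trim AGU, 0 to 3 with Trim A, and 0 to 1 with Plus A. For the interactions it gave 0 to 4 with Trim A, 2 to 4 with Trim AG and 0 to 1 with Trim AGU. The cause was not tested. Library totals in place of TMM shifted the median of all genes by -0.14 for Trim AGU against MC and by 0.11 for hypoxia against normoxia with Plus A. Igfbp2 and Igfbp6 rest on few counts, which limits their precision.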
